A study of Rattus norvegicus with 15 samples.

Results

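Mt-co1, Mt-co2, Mt-co3, Mt-cyb, Mt-atp6 and Mt-atp8 are the 6 protein-coding genes of the rat mitochondrial genome that lie outside complex I, taken here by their Ensembl row IDs. All 6 rows were found among the 22050 genes of the count table, and each had a value in every library. Their IDs in that order are ENSRNOG00000034234, ENSRNOG00000030371, ENSRNOG00000030700, ENSRNOG00000031766, ENSRNOG00000031979 and ENSRNOG00000033299. Each homogenate combined 5 whole brains of rats of the Sprague Dawley strain, taken at postnatal day 5. Libraries are thus pools of animals, and no animal was measured on its own.

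The study compared RNA of the unfractionated homogenate (5 control libraries) with ribosome footprints of the dense pellet of a sucrose gradient, the fraction that holds RNA granules. Footprints were made from 5 vehicle libraries, from 3 libraries in which the homogenate contained 100 ug/ml cycloheximide, a blocker of elongation by cytosolic ribosomes, and from 2 libraries in which the resuspended pellet was exposed to 400 mM NaCl and then diluted to 150 mM before nuclease treatment. The homogenate for footprinting was first cleared by a spin that removed debris, and a detergent was added only to the supernatant, per the labels' protocols.

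Mitochondria keep a small genome of their own, transcribed inside the organelle and translated there by mitochondrial ribosomes, which differ from the ribosomes of the cytosol and are not blocked by cycloheximide. Mt-co1, Mt-co2 and Mt-co3 encode the core of cytochrome c oxidase, the enzyme that passes electrons to oxygen. Mt-cyb encodes cytochrome b of the bc1 complex, and Mt-atp6 and Mt-atp8 encode membrane subunits of ATP synthase, read from partly overlapping frames of a shared transcript. Each of these enzymes also needs subunits made in the cytosol from nuclear genes.

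The libraries fell into a deeper and a shallower set, given by 6 genes whose cells are empty in 9 of the 15 libraries. The 9 deeper libraries (vehicle, cycloheximide and RNA libraries 1 to 3) held 19223750 to 53645452 counts, and the 6 shallower ones (vehicle and RNA libraries 4 and 5, salt libraries 1 and 2) held 941637 to 2808779. The smallest level set as detectable, 3 counts, was 0.0559 to 0.156 CPM in the deeper set and 1.07 to 3.19 CPM in the shallower one. CPM scales the count of a gene to the total of its library and is not corrected for gene length, so levels are compared here between libraries and not between genes. Gene names for other rows were not given in the sources used here, and brain markers and nuclear partner subunits were therefore not analysed. Nuclear copies of mitochondrial sequence, and reads in the overlap of Mt-atp8 and Mt-atp6, could be counted in more than 1 way, and the counting rule was not given.

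The 6 mRNAs together were a visible part of homogenate RNA and a trace of the footprints. They held 0.159%, 0.211% and 0.283% of the counts of RNA libraries 1 to 3, and 0.320% and 0.454% of RNA libraries 4 and 5. In vehicle footprint libraries 1 to 5 they held 0.00227%, 0.000399%, 0.000529%, 0.00396% and 0.00456%, from 784, 148, 284, 75 and 128 counts. Every RNA library was thus above every footprint library, and among footprints the shallower libraries and library 1 were high. The mean share was 204-fold higher in RNA than in vehicle footprints in the deeper libraries and 90.9-fold higher in the shallower ones. The mean of the deeper vehicle footprints, 0.00106% (SD 0.00104, n = 3), rested largely on library 1 and was 0.000464% without it. RNA came from the unfractionated homogenate and footprints from the pellet, so fraction and kind of library cannot be told apart in these folds. The libraries are bulk preparations. Where an RNA level differs between libraries, fewer cells carrying the RNA and less RNA per cell cannot be told apart.

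Mt-co1, the catalytic subunit of the oxidase, was at 1126, 1325, 1871, 1140 and 1717 CPM in RNA libraries 1 to 5. In vehicle footprint libraries 1 to 5 it was at 10.8, 2.10, 2.78, 34.8 and 30.3 CPM. The groups did not overlap, and the footprints of libraries 4 and 5 lay above those of libraries 1 to 3 while the RNA of both sets covered the same range. The log2 ratio of footprints to RNA was -6.18 (SE 0.76, edgeR adjusted p 0.000145), with -7.58 (SE 0.72, edgeR adjusted p 0.000154) in the deeper set and -5.21 (SE 0.29, edgeR adjusted p 2.38e-05) in the shallower set. Without vehicle footprint replicate 1 the deeper value was -8.49.

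Mt-co2, the subunit that receives electrons from cytochrome c, was at 223, 354, 332, 586 and 805 CPM in RNA libraries 1 to 5. Its vehicle footprints were at 2.89, 0.458, 0.913, 0.528 and 1.78 CPM. Here the RNA of libraries 4 and 5 was higher than that of libraries 1 to 3, and the footprints of both sets overlapped. The log2 ratio was -7.95 (SE 0.60, edgeR adjusted p 3.35e-06) over all libraries, -7.22 in the deeper and -8.80 in the shallower set. Vehicle libraries 4 and 5 held 1 and 5 counts of this gene. Without vehicle footprint replicate 1 the ratio was -8.65 over all libraries and -8.03 in the deeper set, and without replicate 5 it was -10.04 in the shallower set.

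Mt-co3, the third core subunit, was at 49.2, 87.7, 143, 277 and 426 CPM in RNA libraries 1 to 5. Its vehicle footprints were at 1.10, 0.296, 0.447, 0 and 1.78 CPM, the last 2 values from 0 and 5 counts. The count of 0 in vehicle library 4 allows a level of up to 1.58 CPM. The log2 ratio was -7.79 (SE 0.78, edgeR adjusted p 2.82e-05), with -6.73 in the deeper and -8.07 in the shallower set. In the shallower set it was -7.25 without vehicle footprint replicate 4, and without replicate 5 no footprint count was left to set its size. The adjusted p-value of Mt-co3 is a description and no support, because its RNA level let it into the test.

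Mt-cyb, the only subunit of the bc1 complex that the mitochondrial genome encodes, was at 102, 190.4, 310, 605 and 946 CPM in RNA libraries 1 to 5. Its vehicle footprints were at 4.45, 0.727, 0.988, 3.17 and 9.97 CPM. Library 5 was the highest footprint library and library 2 the lowest, and no footprint library reached the RNA range. The log2 ratio was -6.66 (SE 0.95, edgeR adjusted p 0.000602), and the sets gave -6.11 and -6.53. The deeper value was -7.15 without vehicle footprint replicate 1, and the shallower one was -5.93 without replicate 4 and -7.72 without replicate 5.

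Mt-atp6, the subunit that forms the proton path of ATP synthase, was at 83.0, 147, 161, 529 and 593 CPM in RNA libraries 1 to 5. Its vehicle footprints were at 2.69, 0.377, 0.149, 1.06 and 1.78 CPM. RNA libraries 4 and 5 stood well above RNA libraries 1 to 3, whereas the footprints of library 1 were the highest. The log2 ratio was -7.69 (SE 0.99, edgeR adjusted p 0.000313), with -6.46 in the deeper and -8.27 in the shallower set. Without vehicle footprint replicate 1 it was -8.97 over all libraries and -8.32 in the deeper set, where it was -5.85 without replicate 3. The adjusted p-value of Mt-atp6 is a description and no support, because its RNA level let it into the test.

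Mt-atp8, a short subunit of the ATP synthase membrane part, was at 4.79, 7.61, 12.4, 62.4 and 53.0 CPM in RNA libraries 1 to 5. Its vehicle footprint counts were 24, 1, 1, 0 and 0, which are 0.694, 0.0269, 0.0186, 0 and 0 CPM. Library 1 thus held nearly all of its footprint counts. In libraries 4 and 5 a level of 3 counts is 1.58 and 1.07 CPM, above the level in library 1, so their counts of 0 do not show a lower level. The log2 ratio was -6.60 (SE 1.12, edgeR adjusted p 0.000745) over all libraries and -4.63 (SE 1.00, edgeR adjusted p 0.00486) in the deeper set. Both adjusted p-values are a description and no support, because the RNA level of Mt-atp8 let it into the tests. Without vehicle footprint replicate 1 the ratios were -9.54 and -7.67, on 2 remaining footprint counts. Without replicate 3 the deeper value was -3.96, and without RNA replicate 4 the value over all libraries was -6.01. In the shallower set, with no footprint count, mean RNA was 43.5-fold higher than the mean floor of 3 counts per footprint library.

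**Figure D1:**
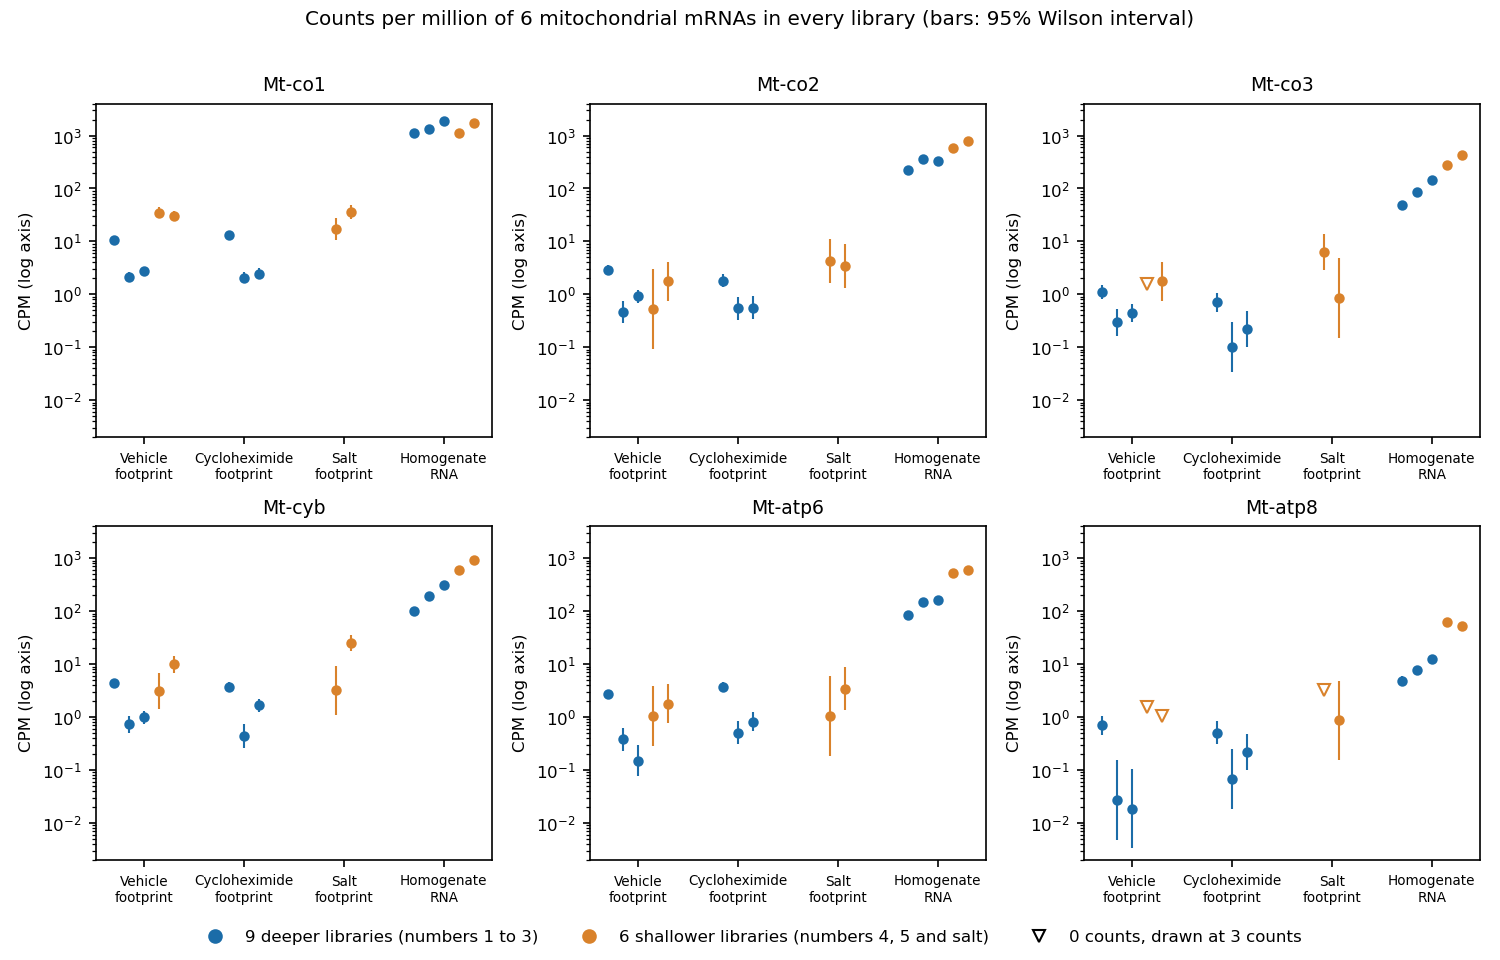
Level of each gene in CPM (log axis) in every library of the 4 groups, with libraries in number order within a group and 95% Wilson intervals as bars. For Mt-co1 the RNA libraries lie between 1126 and 1871 CPM and the vehicle footprints between 2.10 and 34.8 CPM. Open triangles stand for 0 counts and are drawn at the level of 3 counts.

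With edgeR, 6 of 6 genes were lower in footprints than in RNA, where 2164 of 14347 genes tested (15.1%) were called lower. In the deeper set 29.3% of genes were called lower and in the shallower set 2.18%, and the 6 genes were among them in both. These counts are a description and no support, because the low-count filter let some members in through RNA, the group where they are high. The same holds for the adjusted p-values of those members. Over all libraries Mt-co1, Mt-co2 and Mt-cyb reached the filter level in all 5 vehicle footprint libraries, whereas Mt-co3, Mt-atp6 and Mt-atp8 reached it in 3, 3 and 1. In the deeper set these last genes reached it in 2, 2 and 1 of 3 footprint libraries. In the shallower set Mt-co1 reached it in both footprint libraries, Mt-cyb in 1 and the other 4 in none. All 6 genes had every vehicle footprint library below every RNA library, as did 23% of all genes tested, 55.1% in the deeper set and 40.1% in the shallower set. The median over the 6 genes was -7.17 on the log2 scale, beside -0.06 over all genes tested. A lower ratio than that of Mt-co1, the member with the highest ratio, was found for 281 genes (1.96%), the other members included.

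**Figure D2:**
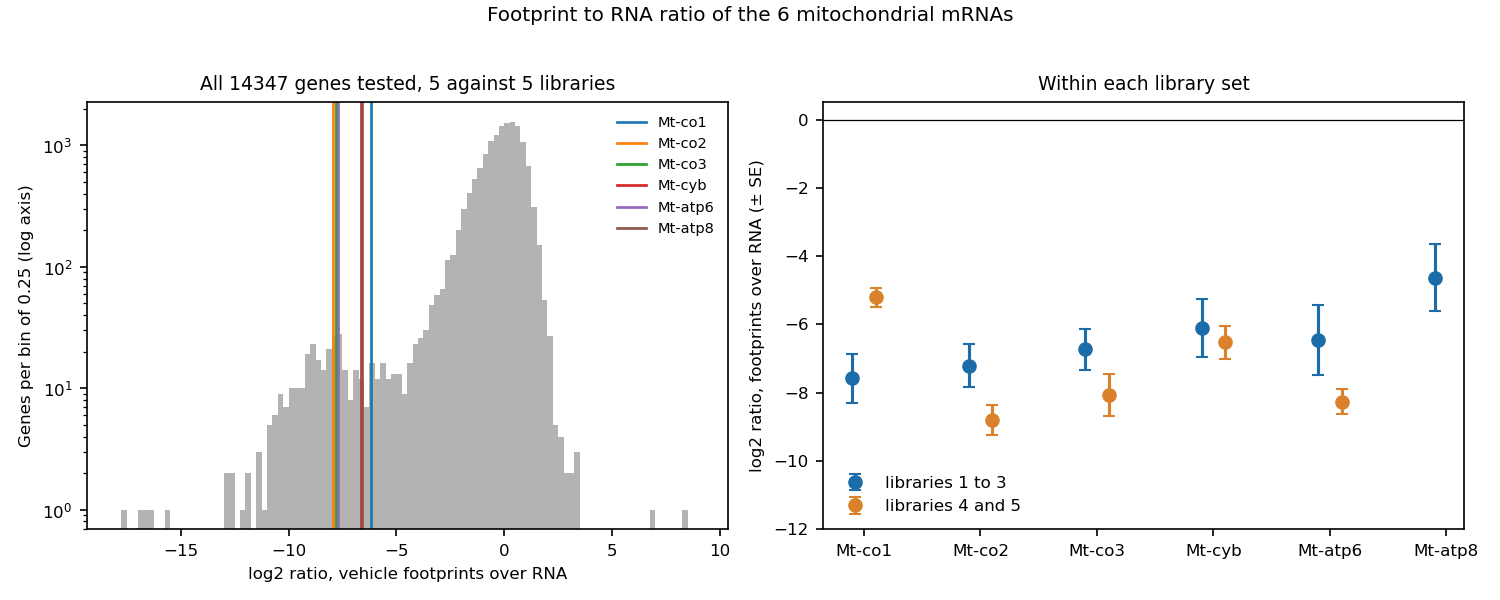
Left, distribution of the log2 ratio of vehicle footprints to RNA over 14347 genes (number of genes on a log axis), with a line for each of the 6 genes between -7.95 and -6.18. Right, the ratio of each gene ± SE in libraries 1 to 3 and in libraries 4 and 5; Mt-atp8 has no point for libraries 4 and 5, where it had 0 footprint counts.

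Neighbouring ratios were often within their errors. Over all libraries the order from the lowest ratio was Mt-co2, Mt-co3, Mt-atp6, Mt-cyb, Mt-atp8 and Mt-co1, spanning -7.95 to -6.18 with standard errors of 0.60 to 1.12. In the deeper set the order was Mt-co1, Mt-co2, Mt-co3, Mt-atp6, Mt-cyb and Mt-atp8, so that Mt-co1 moved from the highest to the lowest place. The difference between the sets was tested for each gene with an interaction term. With edgeR 0 of 6 genes passed, where 400 of 16191 (2.47%) were called, and an unadjusted p under 0.05 was found for 3392 genes and for Mt-co1 alone among the 6. For Mt-co1 the ratio was higher in the shallower set by 2.35 on the log2 scale (SE 0.73, edgeR adjusted p 0.0986). Without vehicle footprint replicate 1 it was higher by 3.34 (edgeR adjusted p 0.00318), in a fit that called 1201 of 16023 genes (7.5%). With each library left out in turn this difference ran from 2.00 to 3.34, and no other omission gave a call. Replicate 1 was the highest deeper footprint library of Mt-co1, so leaving it out raised the difference.

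The RNA of 4 of the 6 genes was higher in libraries 4 and 5 than in libraries 1 to 3, where 3.92% of 15930 genes were called higher. Mt-atp8 was higher by 2.97 on the log2 scale (SE 0.39, edgeR adjusted p 0.00552), Mt-atp6 by 2.28 (SE 0.28, edgeR adjusted p 0.00397), Mt-co3 by 2.08 (SE 0.44, edgeR adjusted p 0.0451) and Mt-co2 by 1.38 (SE 0.24, edgeR adjusted p 0.0172). Mt-cyb gave 2.11 (SE 0.47, edgeR adjusted p 0.0549) and Mt-co1 gave 0.16 (SE 0.27, edgeR adjusted p 0.737). This comparison was chosen after the values were seen. Without the low-count filter 3 genes were called, and Mt-co3 was not among them (edgeR adjusted p 0.0895). Leaving out an RNA library gave 2 to 5 genes called: Mt-co3 was lost without replicate 2, 4 or 5 and Mt-co2 without replicate 2, while Mt-cyb was gained without replicate 1 or 3. Depth moves with these sets, and its part was not tested.

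Vehicle footprints were compared between the sets in the same way. With edgeR 0 of 5 genes tested were called, where 18 of 14072 (0.128%) were called, and an unadjusted p under 0.05 was found for 3360 genes and for Mt-co1 alone among the 5. Mt-co1 gave 2.63 on the log2 scale (SE 0.68, edgeR adjusted p 0.126), and 3.70 (edgeR adjusted p 0.0418) without replicate 1, the highest of the deeper libraries. That fit called 490 of 13290 genes (3.69%). With each library left out in turn Mt-co1 ran from 2.27 to 3.70, and no other omission gave a call. With all libraries the other 4 genes gave -0.21 for Mt-co2, 0.69 for Mt-co3, 1.73 for Mt-cyb and 0.46 for Mt-atp6.

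The make-up of the 6-gene sum does not depend on the rest of the library. Mt-co1 made up 70.9%, 62.7% and 66.1% of the sum in RNA libraries 1 to 3 but 35.6% and 37.8% in RNA libraries 4 and 5. In vehicle footprints it made up 47.8%, 52.7%, 52.5%, 88.0% and 66.4% of the sum in libraries 1 to 5. Footprints therefore held a smaller Mt-co1 part than RNA in libraries 1 to 3 and a larger one in libraries 4 and 5. The 95% Wilson intervals were 78.7 to 93.6 for vehicle library 4 and 57.9 to 74.0 for library 5, against 34.6 to 36.7 and 36.9 to 38.8 for RNA libraries 4 and 5. Counts of RNA libraries were mostly even, so they may not be independent and the RNA intervals may be too narrow.

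Mt-cyb held a larger part of the sum in the deeper footprints than in RNA. It made up 19.6%, 18.2% and 18.7% of the sum in vehicle libraries 1 to 3, beside 6.44%, 9.02% and 10.9% in RNA libraries 1 to 3. In the shallower libraries it made up 8% and 21.9% of the footprint sum and 18.9% and 20.8% of the RNA sum, so the groups overlapped there. Mt-co2 made up 12.8%, 11.5% and 17.3% of the sum in deeper vehicle footprints and 14.0%, 16.8% and 11.7% in the RNA of the same numbers, which also overlapped. No test was made on these parts, which add up to 100% and so depend on one another.

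**Figure D3:**
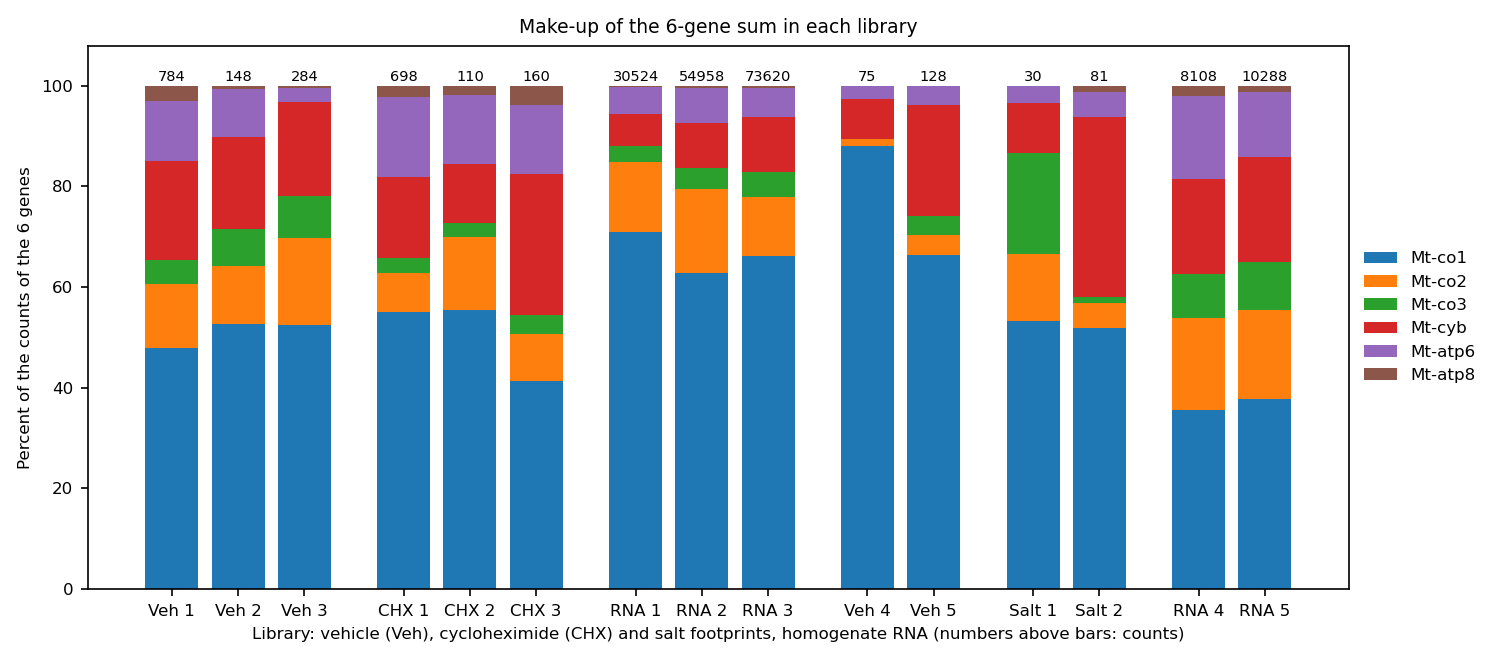
Share of each gene in the summed counts of the 6 genes, in percent, for each library, with the summed counts above the bars. Mt-co1 holds 62.7% to 70.9% in RNA libraries 1 to 3, 35.6% and 37.8% in RNA libraries 4 and 5, and 88.0% and 66.4% in vehicle footprint libraries 4 and 5.

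Cycloheximide present during homogenisation was compared with vehicle within libraries 1 to 3. The 6 genes together held 0.00235%, 0.000373% and 0.000590% of the counts of cycloheximide libraries 1 to 3, close to the vehicle library of the same number in each case. The ratio of cycloheximide to vehicle was 1.04 (exact 95% interval 0.936 to 1.15) for number 1, 0.935 (0.724 to 1.20) for number 2 and 1.11 (0.912 to 1.36) for number 3. These intervals cover counting error only.

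Single genes gave 10.8, 2.10 and 2.78 CPM with vehicle and 12.9, 2.07 and 2.43 CPM with cycloheximide for Mt-co1. Mt-co2 was at 1.82, 0.542 and 0.553 CPM with cycloheximide, Mt-co3 at 0.708, 0.102 and 0.221, and Mt-cyb at 3.78, 0.440 and 1.66. Mt-atp6 was at 3.78, 0.508 and 0.811 CPM and Mt-atp8 at 0.506, 0.0678 and 0.221. Vehicle and cycloheximide ranges overlapped for all 6 genes. Over all genes tested, 1.18% had every cycloheximide library below every vehicle library and 2.34% had every one above.

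With edgeR 0 of 5 genes tested were called between cycloheximide and vehicle, and 0% of 13871 genes were called, as with DESeq2 and limma-voom. An unadjusted p under 0.05 was found in 70 genes (0.505%) and in 0 of the 5. The log2 fold changes were 0.12 (SE 0.85) for Mt-co1, -0.57 (SE 0.78) for Mt-co2, -0.85 (SE 0.83) for Mt-co3, -0.093 (SE 0.88) for Mt-cyb and 0.65 (SE 1.11) for Mt-atp6, each with an edgeR adjusted p of 1.00. Mt-atp8, with 24, 1 and 1 vehicle counts and 15, 2 and 6 cycloheximide counts, did not pass the low-count filter. Same-numbered vehicle and cycloheximide libraries deviated together, and with the number as a block 0 genes were called.

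Since the numbers pair these libraries, the ratio of cycloheximide to vehicle was also taken within each number. Mt-co3 was below vehicle in all 3 pairs, at 0.644, 0.343 and 0.494, as were 10% of the 15646 genes with 10 or more counts in these libraries. Mt-atp6 was above vehicle in all 3 pairs, at 1.40, 1.35 and 5.44, as were 14.5% of those genes. The other 4 genes did not keep 1 direction across the pairs, as Mt-co2 with 0.630, 1.18 and 0.605.

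Of the 18 ratios of a gene in a pair, 5 had an exact 95% interval above 1 and 1 had an interval below 1. Those above were Mt-co1 in number 1 (1.19, interval 1.03 to 1.38), Mt-atp6 in number 1 (1.40, 1.06 to 1.87) and number 3 (5.44, 2.33 to 14.1), Mt-cyb in number 3 (1.68, 1.10 to 2.55) and Mt-atp8 in number 3 (11.9, 1.44 to 546, from 6 counts and 1). Mt-co2 in number 1 lay below (0.630, 0.444 to 0.885). The intervals cover counting error only and are not adjusted for the number of ratios. The share of all genes with such intervals was not computed, so this tally is a description and no support.

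The summed level varied more between numbers than between treatments of the same number. From the lowest to the highest of libraries 1 to 3 the summed level of the 6 genes differed 5.69-fold with vehicle, 6.32-fold with cycloheximide and 1.78-fold in RNA. Library 1 was the highest of the 3 for all 6 genes, with vehicle and with cycloheximide alike, whereas RNA library 1 was the lowest for all 6. Library 1 was the highest with both treatments for 32.6% of 15646 genes. The share of all genes that were lowest in RNA library 1 was not computed. For Mt-co1 library 1 was 4.45-fold (vehicle) and 5.76-fold (cycloheximide) above the mean of libraries 2 and 3, beside 0.705-fold in RNA. For Mt-atp6 the values were 10.2-fold, 5.73-fold and 0.538-fold.

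A ratio of at least 2 in both treatments was found for 6 of 6 genes and for 1199 of 15646 genes with 10 or more counts in these libraries (7.66%). The ratio and its threshold were chosen after the values were seen, and the value for Mt-atp8 in vehicle rests on 1 count each in libraries 2 and 3. The median ratio over all those genes was 1.03 with vehicle and 1.01 with cycloheximide. Library 1 was the shallowest of the 3 with vehicle, at 34584329 counts, and the deepest with cycloheximide, at 29658490 counts.

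**Figure D4:**
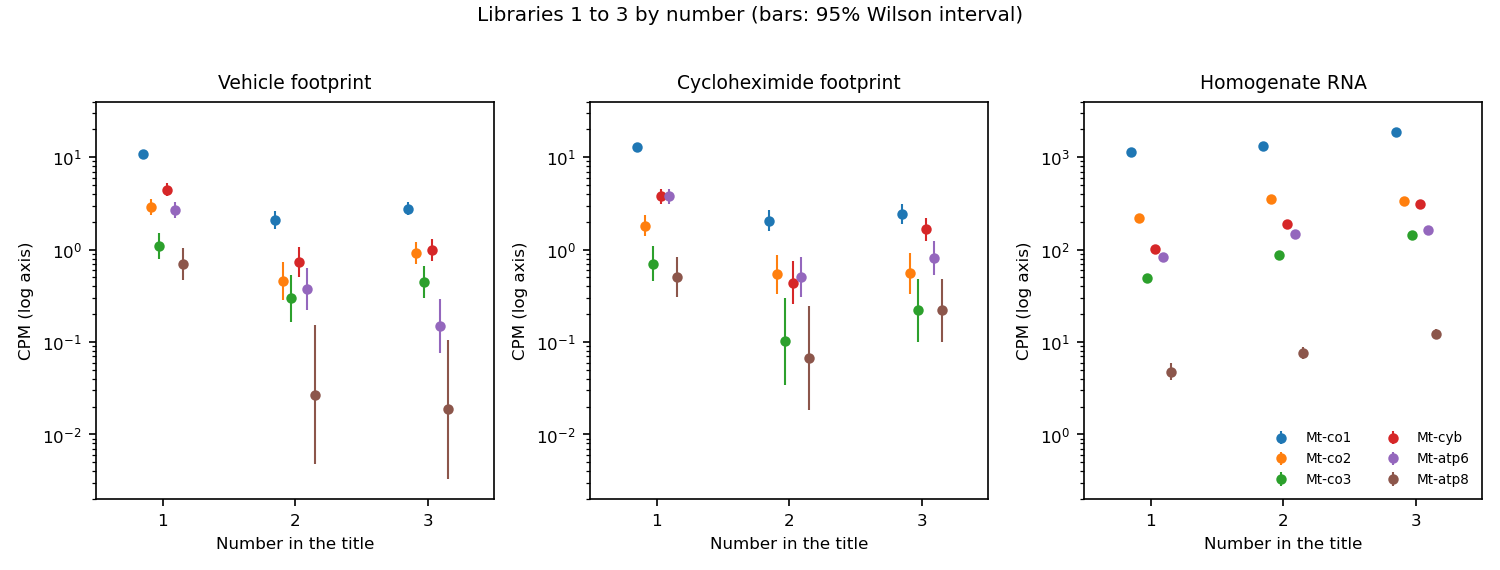
Level of each gene in CPM (log axis) in vehicle footprint, cycloheximide footprint and RNA libraries 1 to 3, with 95% Wilson intervals as bars. Library 1 is the highest in both kinds of footprint, with Mt-co1 at 10.8 and 12.9 CPM, while RNA library 1 has the lowest Mt-co1 level at 1126 CPM.

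Salt treatment of the pellet was compared with vehicle libraries 4 and 5, which belong to the same library set. Salt library 1 held 30 counts of the 6 genes, a share of 0.00319% (95% Wilson interval 0.00223 to 0.00455), and salt library 2 held 81, a share of 0.00699% (0.00562 to 0.00869). Vehicle libraries 4 and 5, at 0.00396% and 0.00456%, lay between them. Mt-co1 was at 17.0 and 36.2 CPM with salt and 34.8 and 30.3 CPM with vehicle. Mt-cyb was at 3.19 and 25.03 CPM with salt, from 3 and 29 counts, and at 3.17 and 9.97 CPM with vehicle.

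With edgeR 0 of 2 genes tested were called between salt and vehicle, and 0% of 9803 genes were called, as with DESeq2 and limma-voom. An unadjusted p under 0.05 was found in 185 genes (1.89%) and in neither of the pair. The log2 fold change was -0.27 (SE 0.66, edgeR adjusted p 1.00) for Mt-co1 and 1.08 (SE 1.29, edgeR adjusted p 1.00) for Mt-cyb. The other 4 genes had 0 to 6 counts per library in these 4 libraries and did not pass the filter. Mt-co2 had 4 and 4 counts with salt and 1 and 5 with vehicle, and Mt-co3 had 6 and 1 with salt and 0 and 5 with vehicle. Mt-atp6 had 1 and 4 counts with salt and 2 and 5 with vehicle, and Mt-atp8 had 0 and 1 with salt and none with vehicle. In CPM both salt libraries of Mt-co2 (4.25 and 3.45) lay above both vehicle libraries (0.528 and 1.78), as did 14.2% of the genes tested. A change of these 4 genes with salt was not detectable at this depth.

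Ordered by Mt-co1 level, the groups ran from homogenate RNA at 1436 ± 341 CPM (SD, n = 5) to vehicle footprints of the shallower set at 32.5 ± 3.23 (SD, n = 2) and salt footprints at 26.6 ± 13.6 (SD, n = 2). Cycloheximide footprints at 5.82 ± 6.18 (SD, n = 3) and vehicle footprints of the deeper set at 5.24 ± 4.86 (SD, n = 3) came last. Salt and shallower vehicle did not differ beyond their spread, nor did cycloheximide and deeper vehicle. In these last 2 groups library 1 was the highest, so their spread is largely one between numbers. Within numbers 1 to 3 the ratio of cycloheximide to vehicle for Mt-co1 was 1.19, 0.984 and 0.876. RNA stood apart from all footprint groups, by 31.1-fold between its lowest library and the highest footprint library, salt library 2. The same gap was 52.4-fold for Mt-co2, 22.0-fold for Mt-atp6, 7.72-fold for Mt-co3, 5.55-fold for Mt-atp8 and 4.08-fold for Mt-cyb. The order of salt and shallower vehicle was that of Mt-co1 alone. Mean salt footprints lay above shallower vehicle for Mt-cyb (14.1 against 6.57 CPM), Mt-co2 (3.85 against 1.15 CPM) and Mt-co3 (3.62 against 0.890 CPM). The same was so for Mt-atp6 (2.26 against 1.42 CPM) and Mt-atp8 (0.431 against 0 CPM), all on few counts.

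The 6 genes followed one another over the 15 libraries. The Pearson correlation of each gene with the mean of the other 5, on log2(CPM + 1), was 0.948 to 0.991, a description that rests largely on the gap between RNA and footprints that all points share. Among 9285 other genes with a mean of at least 10 CPM, 48 had a correlation of at least 0.95 with the mean of the 6. The closest were ENSRNOG00000052025, at 0.989, with 67.3 to 102 CPM in footprints and 309 to 468 in RNA, and ENSRNOG00000053725, at 0.988, with 14.1 to 27.6 and 50.4 to 91.6 CPM. Their footprints were thus closer to their RNA than those of the 6 genes, while the next 3 genes in the order had 0 to 5.31 CPM in footprints and 16.4 to 555 CPM in RNA.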

How the data were processed

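Footprints were measured in 10 libraries and homogenate RNA in 5, grouped and numbered by their titles. The deposited table holds raw read counts per Ensembl gene ID. CASAVA, cutadapt 2.8, Bowtie2 2.3.5, STAR 2.7.3a, deepTools and Rnor_6.0 are named per the submitters' processing notes, and the counting program was not given in the sources used here. In RNA libraries 88.4% to 97.7% of nonzero deposited counts were even, against 48.6% to 50.1% in footprint libraries, and 26 of the 30 RNA values of the 6 genes were even. They were used unchanged. The Wilson intervals of RNA libraries take these counts as independent and may therefore be too narrow, which was not tested.

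The members and lists were chosen with earlier results of these data known. No gene ID matched the reference table (0 IDs), so the planned lists (mitochondrial complex I and rRNA genes, nuclear subunits and assembly factors, cell type markers), and the planned scaling to 13 mitochondrial mRNAs, were not run. The naming rule was to name the 6 genes in every comparison and the 8 others with the highest correlation to their mean, of which 2 are printed by ID. Where a denominator without mitochondrial genes was planned, only the 6 were left out. The 6 genes with empty cells entered no test.

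Tests were edgeR 4.0.16 quasi-likelihood F-tests (R 4.3.3) with TMM scaling, filterByExpr and robust dispersions, Benjamini-Hochberg adjusted over all genes tested and called under 0.05. They were first run on simulated counts with the same dispersion for every gene and no shifts between library numbers. Those settings are simpler than these data. The standard error is the absolute log2 fold change divided by the root of F. Alternatives used DESeq2 1.42.0, limma 3.58.1, other scalings and filters, a replicate block, and each library left out. Wilson and exact intervals (scipy 1.17.1) and the 3-count floor cover counting error only. Over 24 replicate pairs the chi-square divided by its degrees of freedom was at least 6.64, so each library counts as 1 replicate. Nothing says that libraries are separate pools of animals, so p-values measure the spread between libraries, which may be technical. Over 12018 genes, same-numbered vehicle and cycloheximide libraries deviated together (correlations of 0.445 to 0.838), so these numbers pair them. Vehicle and RNA numbers did not (-0.082 to 0.244).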

Additional observations from a re-analysis of the deposited data

Results flagged for a closer look

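Among 26 sets of 5 libraries examined for a library far from the others, 3 values stood out. A rate of 1 in 20 would give about 1.3, but it assumes independent sets of like libraries. Each gene entered both as CPM and as a share of the sum, and the libraries differ in depth, so 1.3 is no sound chance count. Mt-atp8 in vehicle footprint library 1 was at 0.694 CPM, from 24 counts, with the other vehicle libraries at 0 to 0.0269 CPM. Libraries 4 and 5, at 0 counts, have floors of 1.58 and 1.07 CPM and cannot show that library 1 was higher. Library 1 also had the outlying share of Mt-atp8 in the 6-gene sum, 3.06% beside 0 to 0.676%. Mt-cyb made up 8% of the sum in vehicle footprint library 4, from 6 counts, beside 18.2% to 21.9% in the other 4.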

How the results depend on the processing

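All 306 alternative values of the 6 genes in the 3 comparisons of footprints with RNA kept their direction and their call, the replicate block included (Mt-co1 -6.74 over all libraries). This tally is a description and no support, because the low-count filter let some members in through RNA. Mt-atp8 had 0 footprint counts in vehicle libraries 4 and 5, so its direction could not change there. Over all libraries the count of all genes called moved from 3999 to 6041 with limma-voom. Within libraries 4 and 5 they moved from 441 to 1231 without the low-count filter, 974 with DESeq2, 853 with limma-voom and 838 with the replicate block, and lay between 254 and 3002 with a library left out.

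For cycloheximide the Mt-co1 log2 fold change was -0.0040 with the replicate block and -1.40 with all 5 vehicle libraries. With a library left out it ran from -1.20 to 1.21, Mt-co2 from -1.35 to 0.46, Mt-co3 from -1.90 to -0.16, Mt-cyb from -0.96 to 1.14 and Mt-atp6 from -0.67 to 2.67. For salt, Mt-co1 was 0.83 with all 5 vehicle libraries and 2.45 with these and the replicate block. With a library left out it ran from -0.92 to 0.16 and Mt-cyb from -1.05 to 2.18. The count of all genes called with salt moved from 0 to 2 without the filter and to 482 with all vehicle libraries and the replicate block, which pairs libraries of different sets, and ran from 0 to 19 with a library left out.

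For the difference between sets, all genes called moved from 400 to 253 with upper-quartile scaling and 184 with total counts, and ran from 37 to 3031 with a library left out. Members called higher ran from 0 to 1, Mt-cyb from -1.67 to 0.68 and Mt-atp6 from -2.43 to 0.052. Between sets of RNA libraries, total counts gave Mt-co1 -0.012 and 1618 genes called in place of 931. With a library left out these ran from -0.14 to 0.42 and from 142 to 1622, and members called higher from 2 to 5. Between sets of vehicle footprints, 32 genes were called without the filter in place of 18. With a library left out the count ran from 15 to 3648, members called higher from 0 to 1, Mt-co2 from -1.49 to 0.80, Mt-co3 from -7.28 to 1.58 and Mt-atp6 from -0.083 to 2.43. The mean share of the 6 genes in shallower vehicle footprints was 0.00472% without ENSRNOG00000010711 in the total, in place of 0.00426%. The replicate block changed no call of a member in any comparison fitted with it. Salt 1 and 2 and vehicle 4 and 5 share no number, so no paired analysis was possible within that set. The fit relative to 13 mitochondrial mRNAs was not run. The cause of these shifts was not tested. A fit that leaves 1 library in a group assumes that it varies like the others. Depth limits the shallower footprint libraries to 30 to 128 counts of the 6 genes.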
